A study of Mus musculus with 12 samples.

Results

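Aurothioglucose was compared with saline in the lungs of newborn mice kept in high oxygen. The comparison took the 3 libraries labelled ATG/HYP and the 3 labelled SAL/HYP, chosen by their labels alone, which are 6 of the 12 libraries of the study. All mice were C57/Bl6 newborns, as labelled. On day 0 each received 25 mg/kg aurothioglucose (ATG) or saline by intraperitoneal injection, and both groups compared here then spent 72 h in more than 95% oxygen (hyperoxia). The other 6 libraries came from the same injections followed by room air. RNA was amplified to cDNA before sequencing and came from whole lung after the lavage fluid had been taken off, so loosely held airspace cells were partly removed, and every lung cell type contributes to each value. In such samples, fewer cells of a type and less RNA per cell cannot be told apart. The labels do not say which animals or litters the libraries came from, so p-values measure only the spread between samples, which may be technical.

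Aurothioglucose is a gold compound that binds the selenocysteine of thioredoxin reductases and inhibits these enzymes, which keep thioredoxin reduced with electrons from NADPH. Cells commonly answer a loss of thioredoxin reductase activity, and electrophiles in general, through NRF2, a transcription factor that is held by KEAP1 and freed when KEAP1 cysteines are modified. NRF2 then drives genes of glutathione synthesis, thioredoxin recycling, heme breakdown, iron storage and NADPH supply. High oxygen injures the alveolar epithelium and endothelium of the newborn lung and by itself activates many of the same genes, so that both groups compared here share that exposure.

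The 3 saline libraries held 16490223 to 19267023 counts and the 3 ATG libraries 18009965 to 20486735 counts. The test covered 15761 of the 23478 listed genes, those with sufficient counts. Markers of lung were abundant in all 6 libraries, with Sftpc, the surfactant protein C gene, at 6440 to 7566 CPM (counts scaled to a common library size by TMM), Scgb1a1 of club cells at 8239 to 9221 CPM and the endothelial cadherin gene Cdh5 at 964 to 1169 CPM. Transcripts of tissues that lie beside the lung were uneven. The summed level of 20 cardiomyocyte markers reached 3579 CPM in replicate 2 of saline and 7766 CPM in replicate 2 of ATG. The other 4 libraries held 509.9 to 759.6 CPM. The sum of 17 skeletal muscle markers was 506 CPM in saline hyperoxia 1 and 29.4 to 86.4 CPM in the others. Xist and Y-linked genes assigned 2 females and 1 male to saline and 1 female and 2 males to ATG in hyperoxia. In room air they assigned 0 females and 3 males to saline and 2 females and 1 male to ATG.

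Across all genes tested, 1 gene rose and 0 fell after aurothioglucose in hyperoxia, by the quasi-likelihood test of edgeR (here edgeR QL) with Benjamini-Hochberg adjustment and a threshold of 0.05. The gene that rose was Pde4b, which is 0.00634% of the genes tested. At an unadjusted p under 0.05 there were 413 genes on the higher side (2.62%) and 484 on the lower side (3.07%). The samples of the groups did not overlap for 874 genes higher after ATG (5.55%) and for 873 lower (5.54%). The median log2 fold change over all genes was 0.0009, and 50.2% of genes had a positive value. These shares are the background against which the gene groups are given. With 1 hyperoxia library left out, 2.39% to 3.14% of genes were on the higher side and 2.5% to 3.48% on the lower.

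Most genes of ordinary abundance had small effects with narrow intervals. Of the 11899 genes with a mean of at least 5 CPM in the 6 samples, the median absolute log2 fold change was 0.10 and 95.5% had a 95% confidence interval that lay between -1 and 1. In these genes 15 log2 fold changes exceeded 1 and 10 were below -1. Of the 3862 rarer genes only 19.9% had an interval that narrow, so a change of 1 on the log2 scale in such a gene was mostly not detectable at this depth. Other tools called more genes. DESeq2 called 7 higher (Pde4b, Hmox1, Slc7a11, Fth1, S1pr1, Srxn1 and Creg1) and 4 lower (Cd8a, Rag1, Arpp21 and Ccng2). Limma-voom called 3 higher (Pde4b, Hmox1 and Slc7a11) and 0 lower.

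**Figure D1:**
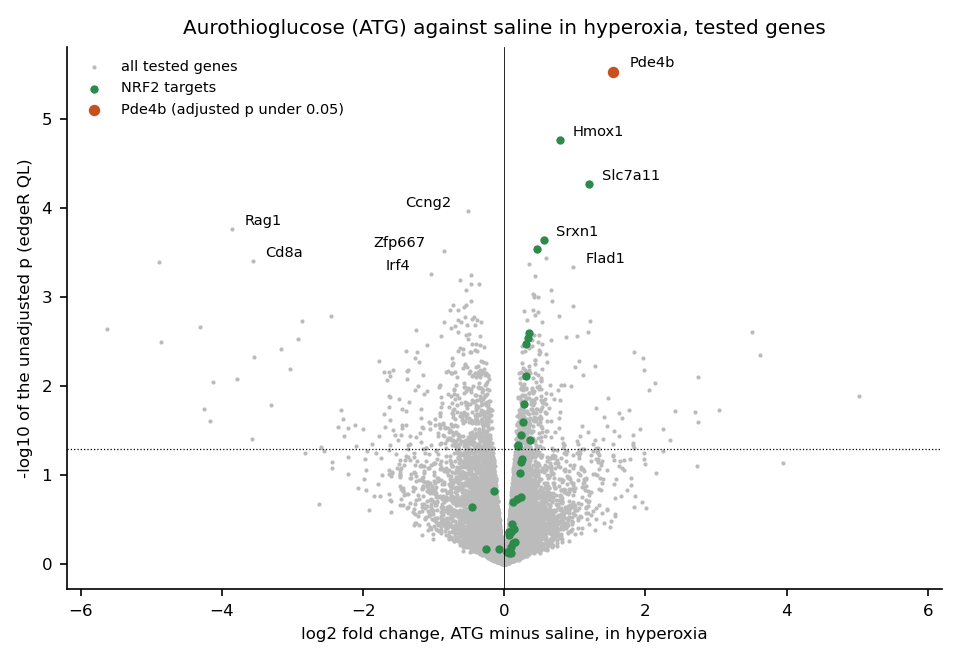
Each point is 1 of 15761 genes, with its log2 fold change (aurothioglucose minus saline, hyperoxia) across and -log10 of its unadjusted edgeR QL p upward. The dotted line marks an unadjusted p of 0.05. Pde4b is the topmost point, NRF2 targets (green) lie mostly right of 0, and the largest negative values belong to rare transcripts such as Rag1.

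Pde4b (chromosome 4, 102087332 to 102607275 in GRCm38.p6, protein-coding) encodes a phosphodiesterase that breaks down cyclic AMP, and it limits cyclic AMP signals in immune, endothelial and smooth muscle cells. Its level was 75.4, 78.0 and 91.6 CPM in saline hyperoxia 1 to 3 and 264, 198 and 249.6 CPM in ATG hyperoxia 1 to 3. Each ATG sample stood more than 100 CPM above the highest saline sample. The means were 81.7 ± 8.71 CPM and 237 ± 34.7 CPM (SD, n = 3 each). Pde4b rose by 1.54 on the log2 scale (SE 0.21, 95% interval 1.09 to 1.98), which is 2.90-fold, with edgeR QL adjusted p = 0.0457.

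The adjusted p of Pde4b lay close to the threshold. Its log2 fold change stayed between 1.46 and 1.66 under every alternative run, and DESeq2 gave adjusted p = 2.85e-05. In some fits the call ended. The edgeR QL adjusted p was 0.102, 0.326 and 0.197 without saline hyperoxia 1, 2 and 3, and 0.212 and 0.263 without ATG hyperoxia 1 and 3. It was 0.0791 without both cardiac-rich libraries and 0.158 with sex as a covariate. With the muscle-rich library also left out, saline hyperoxia 3 was the only saline library in hyperoxia, beside ATG hyperoxia 1 and 3. Because that fit rests on 1 saline hyperoxia library, only its fold changes and medians are given here and below. The adjusted p of Pde4b was 0.0143 without ATG hyperoxia 2 and 0.00842 in a fit of the 6 hyperoxia libraries only. It was 0.00909 with heart marker level as a covariate and 0.000601 with a replicate block.

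In room air Pde4b stood at 134, 122 and 194 CPM after saline and at 192, 278 and 363 CPM after ATG, groups that overlap only between 192 and 194 CPM. The room air log2 fold change was 0.89 (edgeR QL adjusted p = 0.498). The effects in hyperoxia and in room air differed by 0.65 (SE 0.29, interaction adjusted p = 1.00), which did not pass. In a comparison that uses the same saline hyperoxia libraries, Pde4b fell from room air to hyperoxia after saline, with a log2 fold change of -0.88 (edgeR QL adjusted p = 0.0159). The ATG hyperoxia libraries held 198 to 264 CPM. These levels lay above the 122 to 194 CPM of saline in room air and within the 192 to 363 CPM of ATG in room air.

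Other cyclic nucleotide phosphodiesterases did not pass. Of 18 such genes tested, Pde4b alone had an unadjusted p under 0.05 on the higher side and 0 on the lower side. The shares of all genes were 2.62% and 3.07%, and the median of the 18 was -0.04. Among its closest relatives, Pde4a had a log2 fold change of -0.01 (adjusted p = 0.996) and Pde4d of 0.08 (adjusted p = 0.98).

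Promoter stretches are shown for Srxn1, Slc7a11, Txnrd1 and Atf3, because the genes nearest to passing included NRF2 and ATF4 targets, whose factors bind known short motifs. These genes were picked after their values were seen. Each line gives the bases from 120 to 31 before a RefSeq gene start (GRCm38.p6), 5′ to 3′ on the gene's strand, with capitals marking matches on either strand to TGACTCA (the AP-1 site, also the core of many antioxidant response elements), TGACNNNGC (the antioxidant response element core), TGATGNAA (the ATF4 amino acid response element) or TGACG (the left part of the cyclic AMP response element). A match to TGACTCA followed by GC also matches TGACNNNGC. For Txnrd1 the start shown was chosen because it has a match to TGACNNNGC. Of its 3 starts, 1 has such a match in the 250 bases before it, so the choice fixed the marked match.
Srxn1 (chr2:152105404-152105493, plus strand): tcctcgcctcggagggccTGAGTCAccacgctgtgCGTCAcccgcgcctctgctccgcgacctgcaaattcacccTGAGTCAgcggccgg
Slc7a11 (chr3:50443644-50443733, minus strand, a start inside the annotated gene span): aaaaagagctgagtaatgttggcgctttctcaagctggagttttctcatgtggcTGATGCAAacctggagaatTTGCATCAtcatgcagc
Txnrd1 (chr10:82859086-82859175, plus strand, 1 of 3 starts, inside the annotated gene span): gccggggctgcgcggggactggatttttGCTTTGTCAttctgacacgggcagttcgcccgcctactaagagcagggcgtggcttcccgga
Atf3 (chr1:191183364-191183453, minus strand): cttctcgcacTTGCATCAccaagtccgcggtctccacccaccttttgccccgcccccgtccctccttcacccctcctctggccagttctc

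Srxn1 holds TGACTCA on the opposite strand at 102 and at 45 bases before its start. Slc7a11 holds TGATGNAA once on each strand, at 66 and 47 bases, and Atf3 holds it on the opposite strand at 110 bases. Over the 250 bases before the start, TGACTCA was in 4.46% of the 32851 promoters in the RefSeq table, TGACNNNGC in 10.2%, TGATGNAA in 3.45% and TGACG in 17.8%. By symbol, TGACNNNGC was found for 8 of the 28 NRF2 targets with a promoter in the table, against 11.5% of 27025 symbols, and TGATGNAA for 6 of 24 integrated stress response genes, against 3.91%. None of the 4 Pde4b promoters held TGACTCA, TGACNNNGC or TGATGNAA, and 1 held TGACG. A match describes letters only and is no evidence of binding.

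The genes next to Pde4b in rank by p were the NRF2 targets Hmox1 and Slc7a11, and neither passed. Pde4b, Hmox1, Slc7a11, Srxn1, Fth1, S1pr1 and Per2 all meet a naming rule that requires groups that do not overlap. Their separation, given below, is therefore no separate result. Hmox1 (chromosome 8, 75093618 to 75100593), heme oxygenase 1, breaks down heme to biliverdin, carbon monoxide and iron. It stood at 40.9, 49.8 and 46.8 CPM in the saline samples and at 71.4, 77.7 and 87.5 CPM in the ATG samples. The groups were well apart, with a log2 fold change of 0.78 (SE 0.12, 95% interval 0.52 to 1.05), edgeR QL adjusted p = 0.134. By DESeq2 its adjusted p was 2.85e-05 and by limma-voom 0.0357, and with no filter on low counts edgeR QL gave 0.0347. In room air the Hmox1 groups were 25.8 to 34.3 CPM after saline and 32.1 to 38.7 CPM after ATG, with a log2 fold change of 0.23 (adjusted p = 0.868). The difference between both oxygen conditions was 0.55 (interaction adjusted p = 1.00).

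Slc7a11 (chromosome 3, 50364936 to 50499087) encodes the cystine carrier xCT, which brings in the cysteine for glutathione and is a target of both NRF2 and ATF4. Its level was 22.5, 20.4 and 21.9 CPM after saline and 48.5, 42.0 and 58.5 CPM after ATG. The ATG samples all lay well above the saline samples. The log2 fold change was 1.20 (SE 0.21, 95% interval 0.75 to 1.66), 2.30-fold, with edgeR QL adjusted p = 0.281. DESeq2 gave Slc7a11 adjusted p = 5.47e-05, limma-voom 0.0498 and edgeR QL with no filter 0.0469. Its room air log2 fold change was 0.76 (adjusted p = 0.782).

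Srxn1 (chromosome 2, 152105524 to 152111376), sulfiredoxin, repairs overoxidised peroxiredoxins. Its level was 36.3, 30.6 and 37.9 CPM after saline and 51.1, 50.4 and 52.6 CPM after ATG. All 3 ATG samples lay above all 3 saline samples and close together, with a log2 fold change of 0.56 (SE 0.11), edgeR QL adjusted p = 0.556. DESeq2 called it (adjusted p = 0.0252). Without the drug, Srxn1 rose from 10.3 to 12.8 CPM in room air to the hyperoxia level given above, a log2 fold change of 1.60 (edgeR QL adjusted p = 4.36e-06) that rests on the same saline hyperoxia libraries.

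Iron storage genes gave the same pattern at far higher levels. Fth1, the ferritin heavy chain, stood at 885, 701 and 716 CPM after saline and at 1010, 1104 and 1072 CPM after ATG. Its groups were apart, with a log2 fold change of 0.47 (SE 0.10, edgeR QL adjusted p = 0.556). Ftl1, the ferritin light chain, stood at 666 to 718 CPM and 844 to 942 CPM, a log2 fold change of 0.35 (adjusted p = 0.608). Both ferritin genes have near-identical processed copies in the mouse genome, so their counts are uncertain.

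Txnrd1, the cytosolic thioredoxin reductase that the drug inhibits at the protein level, stood at 91.6, 80.2 and 92.0 CPM after saline and 109, 112 and 106 CPM after ATG. The ATG samples were all higher, with a log2 fold change of 0.31 (SE 0.09, edgeR QL adjusted p = 0.623). The mitochondrial Txnrd2 (0.21, adjusted p = 0.961) and the testis-enriched Txnrd3 (0.09, adjusted p = 0.977) had intervals that included 0. Counts of RNA do not measure the enzyme's activity.

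**Figure D2:**
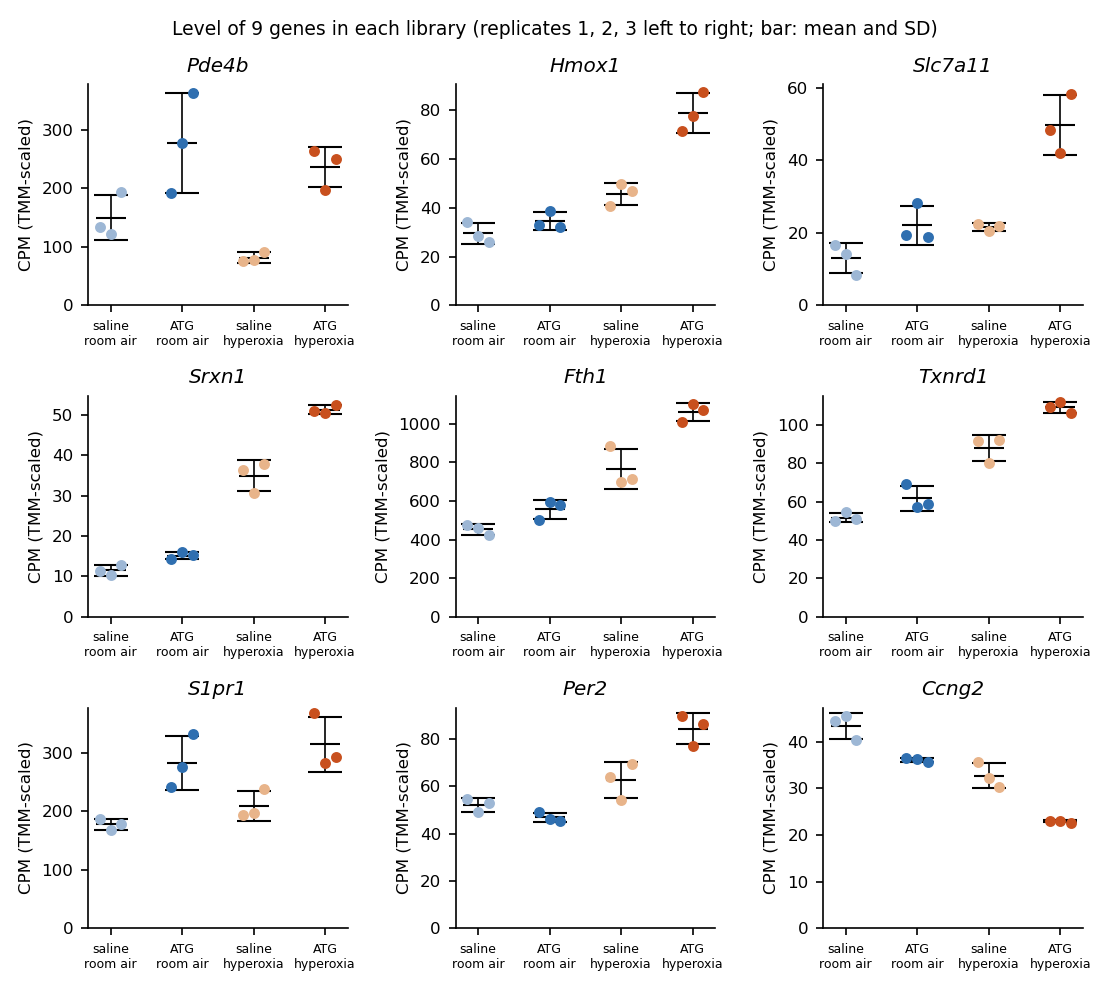
Levels in CPM of 9 genes in each of the 12 libraries, by group, with replicates 1, 2 and 3 from left to right and the mean and SD as bars. In hyperoxia the 3 ATG samples lie above the 3 saline samples for the first 8 genes and below them for Ccng2. All but Txnrd1 meet a naming rule that requires groups that are apart, so their separation is no separate result. Only Pde4b passed the adjusted test.

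Taking the NRF2 target list as a whole, 32 of 36 genes had a positive log2 fold change, against 50.2% of all genes, and the median was 0.18. At an unadjusted p under 0.05, 14 of 36 were on the higher side and 0 on the lower, where the background was 2.62% and 3.07%. The samples did not overlap for 14 members on the higher side and 1 on the lower, against 5.55% and 5.54% of all genes. None passed after adjustment over all genes. Beside the genes above, the 14 were Sqstm1 (0.34), an autophagy receptor that binds KEAP1, the glutathione reductase Gsr (0.30), Gclc (0.26), the catalytic subunit of the first step of glutathione synthesis, the peroxiredoxin Prdx1 (0.24), the transferase Gstp1 (0.37), and the NADPH-supplying Pgd (0.28), Tkt (0.20) and G6pdx (0.19), all log2 fold changes. Gstp1 and Prdx1 have near-identical copies and are uncertain.

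The number on the higher side moved with the samples used. It was 8 without ATG hyperoxia 2 and 8 without both cardiac-rich libraries, where the background was 2.75% and 2.53%. The list's median stayed between 0.14 and 0.24 over all alternatives. Textbook members differed among themselves. Nqo1, a quinone reductase often used to read out NRF2, stood at 8.23, 8.75 and 11.5 CPM after saline and 12.5, 8.69 and 9.71 CPM after ATG, groups that overlap (0.12, 95% interval -0.31 to 0.55, edgeR QL adjusted p = 0.983). Gclm, the regulatory partner of Gclc, had 0.09 in hyperoxia (adjusted p = 0.969) and 0.35 in room air (adjusted p = 0.818).

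Smaller lists that share members with the NRF2 list lay the same way. At an unadjusted p under 0.05 the shares of all genes were 2.62% on the higher side and 3.07% on the lower. Of 21 thioredoxin system genes, 4 were on the higher side at an unadjusted p under 0.05 (Srxn1, Txnrd1, Prdx2 and Prdx1) and 0 on the lower side, with a median of 0.12. Of 27 glutathione genes, 5 were on the higher side (Slc7a11, Gsr, Slc3a2, Gclc and Gstp1) and 0 on the lower, with a median of 0.19. Of 18 heme and iron genes, 5 were on the higher side (Hmox1, Fth1, Ftl1, Alas1 and Mfsd7b, a heme exporter) and 0 on the lower, with a median of 0.13. Of 16 NADPH enzymes, 3 were on the higher side and 0 on the lower, with a median of 0.08. None of these genes passed after adjustment by edgeR QL. Of 24 lysosome and autophagy genes, 3 were on the higher side and 0 on the lower, with a median of 0.08. The groups were apart on the higher side for 7 of these, against 5.55% of all genes. These counts moved with the libraries used. Without ATG hyperoxia 1, 2 glutathione and 1 lysosome genes were on the higher side, and the medians were 0.19 for thioredoxin, 0.060 for heme and iron and 0.13 for lysosome genes. Without ATG hyperoxia 2, 3 glutathione genes and 1 NADPH enzyme were, with medians of 0.077 for glutathione and 0.039 for lysosome genes. Without ATG hyperoxia 3, 1 NADPH enzyme was, with medians of 0.14 for NADPH enzymes and 0.21 for heme and iron genes. Without saline hyperoxia 1 the lysosome median was 0.12, without saline hyperoxia 2 the NADPH count was 1, and without saline hyperoxia 3 the thioredoxin count was 2. By DESeq2 and with the replicate block 1 NADPH enzyme was on the higher side. Without both cardiac-rich libraries the counts were 2 glutathione genes and 1 NADPH enzyme, with medians of 0.12 for glutathione and 0.038 for lysosome genes. With the muscle-rich library also left out, which leaves 1 saline hyperoxia library, the medians were 0.11 for glutathione genes, 0.053 for NADPH enzymes and 0.13 for lysosome genes. Metal-binding Mt1 (0.19, adjusted p = 0.952) and Mt2 (0.08, adjusted p = 0.984), which zinc and gold can induce, did not pass, and their reads are uncertain because the copies are alike.

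In the integrated stress response the factor ATF4 raises amino acid uptake and synthesis genes. Of 27 such genes, 7 were on the higher side at an unadjusted p under 0.05 and 1 on the lower. The shares of all genes were 2.62% and 3.07%, so the count on the lower side was near the background. The median of the list was 0.24. Atf4 itself stood at 112, 118 and 126 CPM after saline and 170.0, 147 and 137 CPM after ATG, groups that did not overlap (0.35, SE 0.10, edgeR QL adjusted p = 0.608). Atf3, a stress-induced factor of the same family, stood at 9.88, 11.2 and 15.5 CPM and at 28.8, 27.0 and 17.3 CPM (1.00, SE 0.31, adjusted p = 0.673). Its groups came close, since ATG hyperoxia 3 lay just above saline hyperoxia 3. The others were Slc7a11, Slc3a2, Slc7a5, Asns and Ppp1r15a, and the gene on the lower side was Cebpg (-0.24), a partner of ATF4. Without both cardiac-rich libraries and the muscle-rich library, which leaves 1 saline hyperoxia library, the median was 0.18. The median was 0.14 without saline hyperoxia 1. Cebpg left the lower side, with 0 genes there, without saline hyperoxia 3, ATG hyperoxia 1 or ATG hyperoxia 2.

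Clock genes had 5 of 19 members on the higher side at an unadjusted p under 0.05 and 1 on the lower. The shares of all genes were 2.62% and 3.07%, and the median of the list was 0.16. Per2, a repressor of the circadian loop, stood at 63.8, 54.3 and 69.3 CPM after saline and 89.6, 76.9 and 86.4 CPM after ATG, with no overlap (0.43, SE 0.10, edgeR QL adjusted p = 0.567). Per3 was also apart, at 57.8 to 67.4 CPM and 79.2 to 86.3 CPM (0.39, adjusted p = 0.623). Per1 (1.03, adjusted p = 0.608) ranged from 25.6 to 47.5 CPM and from 43.1 to 90.7 CPM, so its groups overlap. The other 2 were Nr1d2 (0.45) and Bhlhe40 (0.32), and the member on the lower side was Npas2 (-0.46), a partner of the activator ARNTL. The lower side held 0 genes without saline hyperoxia 3 or ATG hyperoxia 1. Without both cardiac-rich libraries 3 were on the higher side, and with the muscle-rich library also left out the median was 0.31. In room air Per2 (-0.16) and Per3 (-0.20) had values of the opposite sign, and the interaction p was 0.000844 for Per2 and 0.00223 for Per3 (adjusted p = 1.00 for Per2 and for Per3). The hour of day at which lungs were taken is not given in the sources used here, and its part was not tested.

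Angiogenic and endothelial genes had few members away from 0. S1pr1, the receptor that holds endothelial junctions together in response to sphingosine 1-phosphate, stood at 193, 197 and 239 CPM after saline and 368, 282 and 293 CPM after ATG. Its groups did not overlap (0.59, SE 0.13, edgeR QL adjusted p = 0.556), and DESeq2 called it. Ackr3, a scavenger of the chemokine CXCL12, lay at 93.0 to 102 CPM and 129.9 to 131 CPM (0.43, adjusted p = 0.589). Of 28 angiogenic receptors 2 were on the higher side and 1, Cxcr4, on the lower at an unadjusted p under 0.05. The shares of all genes were 2.62% and 3.07%, and the median of the receptors was 0.02. Of 28 angiogenic ligands 2 (Thbs1 and Efnb2) were on the higher side and 0 on the lower, with a median of 0.03.

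Of 28 endothelial factors and effectors 3 were on the higher side, Klf4 (0.59) first, and 1, Ets1, on the lower. The shares of all genes were 2.62% and 3.07%, and the median of the list was 0.07. Of 24 lung endothelial markers Tmem100 (0.43), Lyve1 (0.39) and Cldn5 (0.41) were on the higher side and Car4 (-0.25), which marks a capillary cell type, on the lower, with a median of 0.05. The vessel growth genes Vegfa (-0.03, 95% interval -0.28 to 0.23), Kdr (95% interval -0.28 to 0.27), Angpt1 (0.06, -0.19 to 0.32) and Epas1 (0.04, -0.21 to 0.28) had intervals around 0. That of Pecam1, a marker of all endothelium, ran from -0.14 to 0.21. The counts of these 4 lists were small and moved with the libraries. Without ATG hyperoxia 2 there were 4 ligands, 4 receptors, 6 factors and 5 lung endothelial markers on the higher side. The higher side held 6 factors without saline hyperoxia 1, 1 factor without saline hyperoxia 2, 4 receptors without saline hyperoxia 3 and 4 receptors without ATG hyperoxia 3. The lower side held 1 ligand without saline hyperoxia 1, 1 ligand and 0 receptors without ATG hyperoxia 1, 3 ligands without ATG hyperoxia 3, 2 factors and 0 lung endothelial markers without saline hyperoxia 3, and 0 of both without ATG hyperoxia 2. With 1 library left out the 4 medians lay between -0.016 and 0.11, and those of ligands and receptors changed sign. Flt1, a decoy receptor for VEGF, had 0.19 (adjusted p = 0.852).

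Markers of alveolar cells gave medians near 0. Of 16 alveolar type 2 markers and 15 alveolar type 1 markers, 0 had an unadjusted p under 0.05 by edgeR QL, and the medians were 0.02 and 0.04. With 1 library left out the medians ranged from -0.049 to 0.069 (type 2) and from -0.046 to 0.074 (type 1), both signs, and 1 type 2 marker was on the higher side without saline hyperoxia 1 and 1 on the lower without ATG hyperoxia 3. Sftpc had 0.08 (95% interval -0.07 to 0.24) in hyperoxia and 0.37 in room air (edgeR QL adjusted p = 0.29). In room air 7 type 2 and 2 type 1 markers were on the higher side, against 3.08% of all genes, with medians of 0.18 and 0.15. The interaction had an unadjusted edgeR QL p under 0.05 for 4 type 2 markers, 0 of them positive, and for 0 type 1 markers. Of all genes, 1.47% were on the negative side of that test, and none passed. Transitional epithelium is the state that alveolar type 2 cells pass through during repair. Of its 18 genes, 5 were on the higher side (Areg, Plaur, Lgals3, Cldn4 and Ctgf) and 0 on the lower, with a median of 0.18. The shares of all genes were 2.62% and 3.07%. Areg, an epidermal growth factor family ligand, stood at 7.98, 5.46 and 11.99 CPM and at 16.4, 21.8 and 14.7 CPM (1.06, SE 0.32, edgeR QL adjusted p = 0.673). Its groups did not overlap, and neither did those of Cldn4, a tight junction gene, at 7.11 to 8.34 CPM and 8.38 to 18.7 CPM. This list had 8 genes on the higher side and a median of 0.36 without ATG hyperoxia 3, and 3 and 0.028 without ATG hyperoxia 2. It had 3 on the higher side without saline hyperoxia 2 or ATG hyperoxia 1, and a median of 0.11 without saline hyperoxia 3. It had 2 on the higher side without both cardiac-rich libraries. With the muscle-rich library also left out, which leaves 1 saline hyperoxia library, the median was 0.13.

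Of 21 immediate early genes, 4 were on the higher side and 2 on the lower at an unadjusted p under 0.05, with a median of 0.07. The shares of all genes were 2.62% and 3.07%. The balance turned without saline hyperoxia 2, with 2 higher, 4 lower and a median of -0.021. Without the cardiac-rich and muscle-rich libraries, which leaves 1 saline hyperoxia library, the median was -0.034. The lower side held 0 without saline hyperoxia 1 or 3 or ATG hyperoxia 2 and 1 without ATG hyperoxia 3, where the medians were 0.12 to 0.18, and the higher side held 2 without ATG hyperoxia 1. Nr4a1, a nuclear receptor induced within minutes by stress or handling, ranged from 20.6 to 66.0 CPM and from 70.4 to 169.7 CPM (1.30, adjusted p = 0.767). Of 28 nuclear genes of oxidative phosphorylation, 26 had positive log2 fold changes, against 50.2% of all genes. The changes were of small size (median 0.12, highest 0.36). At an unadjusted p under 0.05, 2 were on the higher side, against 2.62% of all genes. The median was 0.044 without ATG hyperoxia 2, 0.21 without saline hyperoxia 2 and 0.19 without ATG hyperoxia 1 or 3. The higher side held 1 without saline hyperoxia 1 or 3 or ATG hyperoxia 2, 7 without saline hyperoxia 2 and 5 without ATG hyperoxia 1 or 3. It held 1 without both cardiac-rich libraries.

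**Figure D3:**
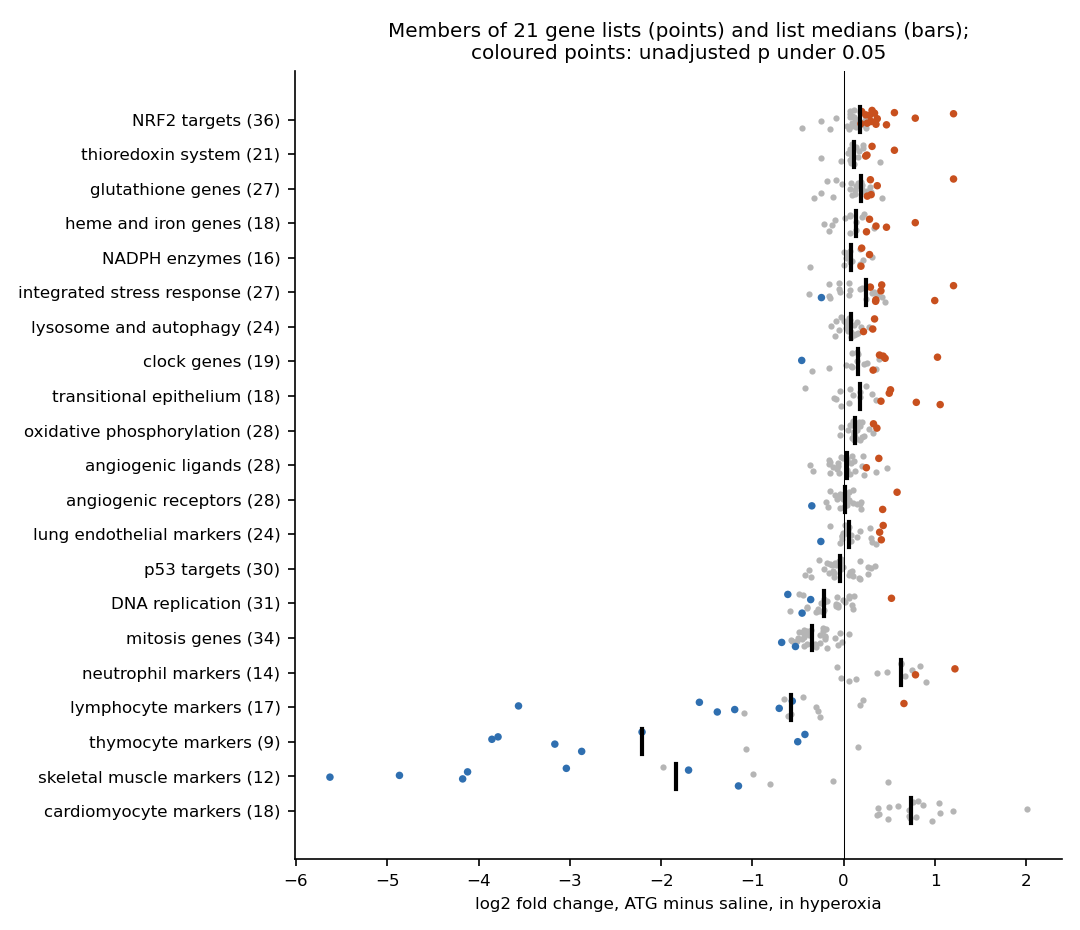
Log2 fold change (aurothioglucose minus saline, hyperoxia) of each member of 21 gene lists, with the number tested in brackets, list medians as black bars and members with an unadjusted p under 0.05 in colour. NRF2 and related lists lie to the right with medians of 0.08 to 0.24, and the widest spreads belong to lymphocyte, thymocyte and skeletal muscle markers.

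On the lower side the gene with the smallest p was Ccng2 (chromosome 5, 93267573 to 93276231), which encodes cyclin G2, a cyclin of non-dividing cells and a FOXO target. Its level was 35.7, 32.3 and 30.3 CPM after saline and 23.1, 23.1 and 22.7 CPM after ATG. The ATG samples were nearly equal and all below the saline samples, as the rule that names this gene requires. The log2 fold change was -0.51 (SE 0.10, edgeR QL adjusted p = 0.427). DESeq2 called it. In room air Ccng2 stood at 40.3 to 45.5 CPM and 35.7 to 36.4 CPM (-0.26, adjusted p = 0.818), also apart.

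Next on the lower side by p among the genes that met the rule was Zfp667, a zinc finger repressor gene. It stood at 9.63 to 10.2 CPM after saline and 4.83 to 6.07 CPM after ATG (-0.85, edgeR QL adjusted p = 0.556). Irf4, a factor of lymphocytes and myeloid cells, stood at 7.43 to 10.99 CPM and 3.36 to 6.36 CPM (-1.04, adjusted p = 0.567). Bcl7a (-0.48) and Ss18l1 (-0.63) encode parts of the BAF chromatin remodelling complex, and Rprd1b (-0.36) a regulator of RNA polymerase II. Thap2 (-0.48), Zfp553 (-0.55), Zfp46 (-0.47) and Zfp790 (-0.54) encode proteins with zinc-binding DNA-contact domains. The groups were apart for each of these 9 genes, as the rule that names them requires, and none passed. The rule left out markers of thymus, heart and muscle, among them Rag1, which is given with the lymphocyte genes.

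The genes named on the higher side by the same rule, which requires groups that are apart, and not yet described, were Creg1, Flad1 and Parl. Creg1, a secreted glycoprotein gene, stood at 193 to 220.4 CPM after saline and 253 to 279 CPM after ATG (0.35, SE 0.08, edgeR QL adjusted p = 0.556). Flad1, which makes FAD, stood at 5.82 to 6.21 CPM and 9.21 to 14.7 CPM (0.97, adjusted p = 0.556). Parl, a mitochondrial membrane protease, stood at 8.04 to 9.58 CPM and 12.8 to 15.2 CPM (0.67, adjusted p = 0.589).

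Cell cycle genes had negative values that moved when single libraries were left out. Of 34 mitosis genes 33 had a negative log2 fold change, against 49.8% of all genes, with a median of -0.35. Yet 2 were on the lower side at an unadjusted p under 0.05 (Cdc20 and Aurkb) and 0 on the higher side. The shares of all genes were 3.07% and 2.62%. Mki67, the Ki-67 gene, stood at 203, 426 and 297 CPM after saline and 256, 154 and 277 CPM after ATG. The highest sample was saline hyperoxia 2 and the lowest ATG hyperoxia 2, the libraries with the most cardiac transcripts, and the other samples overlapped. Without these 2 libraries the median of the mitosis list was 0.10, of the opposite sign, and without these and the muscle-rich library it was -0.14. It was -0.10 without saline hyperoxia 2 alone and -0.085 without ATG hyperoxia 2 alone. With heart marker level as a covariate the mitosis median was -0.39, the DNA replication median -0.22 and the Mki67 value -0.43. The lower side held 12 mitosis genes without saline hyperoxia 1, 7 without ATG hyperoxia 3, and 0 without saline hyperoxia 2 or 3 or ATG hyperoxia 2. Of 31 DNA replication genes 3 were on the lower side and 1 on the higher, with a median of -0.22, which became 0.04 without both cardiac-rich libraries, -0.083 without saline hyperoxia 2 and -0.043 without ATG hyperoxia 2. The lower side held 8 without saline hyperoxia 1, 5 without ATG hyperoxia 3, 1 without saline hyperoxia 2 or 3 and 0 without ATG hyperoxia 2, and the higher side 0 without saline hyperoxia 1 and 2 without saline hyperoxia 2.

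Of 30 p53 targets, the genes that DNA damage induces, 0 had an unadjusted p under 0.05 by edgeR QL in either direction, and the median was -0.04 (0.18 without both cardiac-rich libraries). The median was positive without saline hyperoxia 2 (0.039), saline hyperoxia 3 (0.053) or ATG hyperoxia 2 (0.097) and negative without saline hyperoxia 1 (-0.15), ATG hyperoxia 1 (-0.16) or ATG hyperoxia 3 (-0.070). At most 4 targets were on the higher side in these fits and at most 2 on the lower. Cdkn1a, the p21 gene, ranged from 678 to 1275 CPM after saline and from 580.4 to 1385 CPM after ATG, a wide overlap (0.06, 95% interval -0.47 to 0.59).

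**Figure D4:**
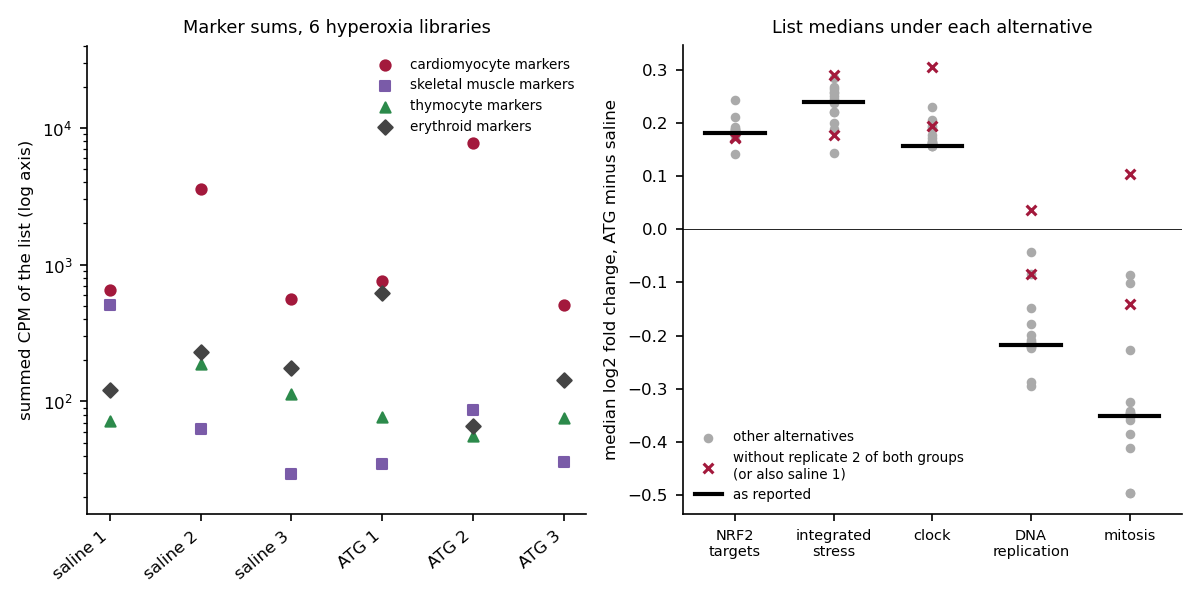
Left, the summed CPM (log axis) of 4 marker lists in each of the 6 hyperoxia libraries, with cardiomyocyte markers at 3579 and 7766 CPM in replicate 2 of saline and of ATG. Right, the median log2 fold change of 5 gene lists as reported (bar) and under each alternative (points), with crosses for fits without replicate 2 of both groups, alone or with saline 1 also left out. The mitosis median goes from -0.35 to 0.10 and -0.14 there, and the NRF2 median is 0.17 in both. The fit with saline 1 also left out keeps only saline 3 of the saline hyperoxia libraries.

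Lymphocyte genes had 6 of 17 members on the lower side at an unadjusted p under 0.05 and 1, Il7r, on the higher side. The shares of all genes were 3.07% and 2.62%, and the median of the list was -0.58. The median was -0.30 without ATG hyperoxia 2 and -0.30 without both cardiac-rich libraries, each with 2 on the lower side. Without saline hyperoxia 3 there were 3 on the lower side. Without the cardiac-rich and muscle-rich libraries, which leaves 1 saline hyperoxia library, the median was -0.42. Il7r was not on the higher side without saline hyperoxia 2 or 3 or ATG hyperoxia 2 or 3. The lowest value of the list belonged to Cd8a, which thymocytes also express. It is given here beside Rag1, a member of the thymocyte list. Cd8a, a T cell co-receptor gene, stood at 1.49, 9.93 and 4.93 CPM after saline and 0.496, 0.0561 and 0.788 CPM after ATG. Rag1, which recombines antigen receptor genes in immature lymphocytes, stood at 2.68, 39.2 and 15.0 CPM and at 1.66, 0.449 and 1.77 CPM. Both genes were highest in saline hyperoxia 2 and 3. In the room air libraries Cd8a ranged from 0.684 to 3.33 CPM and Rag1 from 1.88 to 6.35 CPM. The log2 fold changes were -3.56 (SE 0.78, edgeR QL adjusted p = 0.556) and -3.85 (SE 0.77, adjusted p = 0.535).

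The summed level of 11 thymocyte markers was 72.4, 187.5 and 112.8 CPM in the saline samples and 77.3, 55.9 and 75.7 CPM in the ATG samples, with 82.96 to 109.6 CPM in room air. Of its 9 tested members 7 were on the lower side at an unadjusted p under 0.05 and 0 on the higher, against 3.07% and 2.62% of all genes. The median of -2.21 was -0.42 without both cardiac-rich libraries and -0.92 without saline hyperoxia 2 alone. The lower side held 2 of these without saline hyperoxia 2, 4 without ATG hyperoxia 2 and 3 without both cardiac-rich libraries. The part of tissue beside the lung in the lymphocyte values was not tested. Of 14 neutrophil markers, Ngp (1.22, adjusted p = 0.589) and Ltf (0.79, adjusted p = 0.752), which encode granule proteins, were on the higher side. There were 0 on the lower side, with a median of 0.63, and the shares of all genes were 2.62% and 3.07%. The summed level of 16 neutrophil markers was lowest in saline hyperoxia 2, at 192 CPM, below the 262.5 to 519 CPM of room air. The median was 0.30 without that library, 0.30 without both cardiac-rich libraries, 0.40 without saline hyperoxia 3 and 0.98 without saline hyperoxia 1. The higher side held 10 without saline hyperoxia 1, 1 without ATG hyperoxia 1 and 6 with the replicate block. Without the cardiac-rich and muscle-rich libraries, which leaves 1 saline hyperoxia library, the median was 0.84. Ngp stood at 22.7, 12.5 and 12.8 CPM after saline and 52.7, 31.4 and 28.2 CPM after ATG, with no overlap, while 13 of the 14 markers overlapped between groups.

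Markers of the neighbouring tissues moved with single libraries. For the counts that follow, the shares of all genes at an unadjusted p under 0.05 were 2.62% higher and 3.07% lower. Of 18 cardiomyocyte markers tested all had positive values, with a median of 0.74, and 0 had an unadjusted p under 0.05. The median was -0.0024 without both cardiac-rich libraries, -1.27 without ATG hyperoxia 2 alone and 2.24 without saline hyperoxia 2 alone, and the other libraries moved it between 0.32 and 1.25. With 1 library left out, 0 to 15 of these were on the higher side and 0 to 9 on the lower. Of 12 skeletal muscle markers 7 were on the lower side and 0 on the higher, with a median of -1.84 that was -0.06 without saline hyperoxia 1, with 0 on the lower side, and 4 were there without ATG hyperoxia 1 or 3. Of 10 erythroid markers 1, Rhag, was on the higher side and 0 on the lower, with a median of 0.91 that was -0.52 without ATG hyperoxia 1, which held 625 CPM of these markers, while the remaining hyperoxia libraries held 65.8 to 229.4 CPM. The higher side held 0 of these without ATG hyperoxia 1 or saline hyperoxia 3, 2 without saline hyperoxia 2, 5 without ATG hyperoxia 2 and 3 without ATG hyperoxia 3.

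The same drug was compared with saline in room air, with which the hyperoxia comparison shares no library. There 0 genes passed in either direction by edgeR QL, with 486 on the higher side (3.08%) and 463 on the lower (2.94%) at an unadjusted p under 0.05. DESeq2 called 7 higher and 9 lower in room air. The saline room air libraries were all male and the ATG room air libraries 2 female and 1 male; with sex as a covariate edgeR QL also called 0, with 483 genes on the higher side and 447 on the lower at an unadjusted p under 0.05. The part of sex in the other room air values was not tested. Of the 413 genes on the higher side in hyperoxia, 94 were also on the higher side in room air, which is 22.8% of the hyperoxia list and 19.3% of the room air list, and 4 were on the opposite side. Of the 484 on the lower side 50 were shared, 10.3% of the hyperoxia list and 10.8% of the room air list, with 2 on the opposite side. Both comparisons use the same estimate of each gene's spread from all 12 libraries, so their p-values are not independent. Across the 11973 genes with a mean of at least 5 CPM the log2 fold changes in both conditions had a Pearson correlation of 0.21, and across all 15761 genes tested it was 0.042, a description over genes that are not independent replicates.

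Among the 100 genes of at least 5 CPM with the smallest p in hyperoxia, 52 were higher and 48 lower, and 88 had the same sign in room air, against 60.1% of all 11899 such genes. Of the 36 NRF2 targets, 27 were positive in both conditions, 14 and 11 were on the higher side at an unadjusted p under 0.05 in hyperoxia and in room air, and 6 were so in both. The list's room air median was 0.19, beside 0.18 in hyperoxia. Of all genes, 52.8% had a positive value in room air. S1pr1 had 0.67 in room air (adjusted p = 0.265) beside 0.59 in hyperoxia, and Klf4 0.79 beside 0.59.

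**Figure D5:**
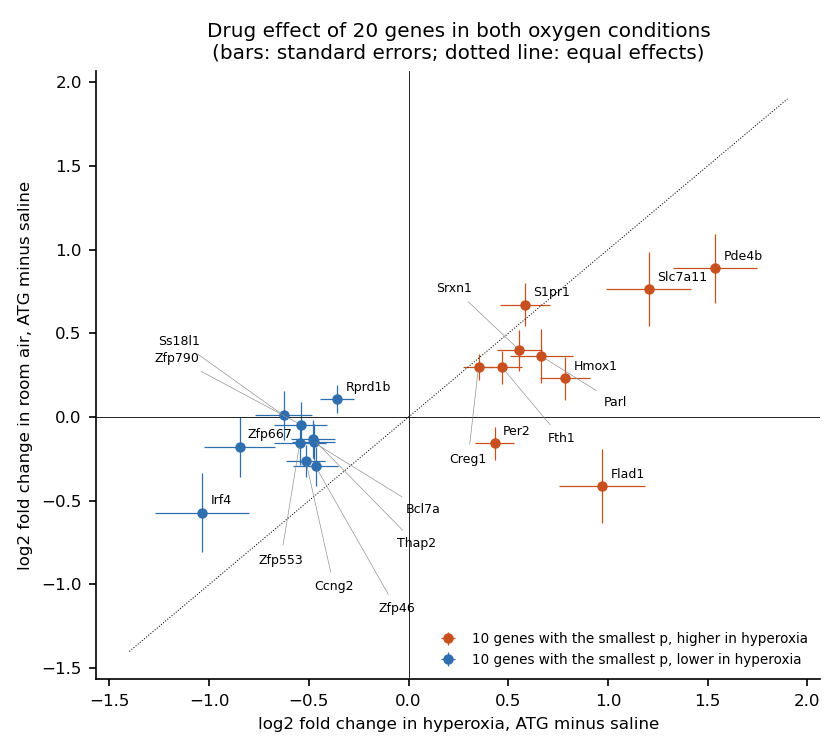
Log2 fold change of aurothioglucose against saline in hyperoxia (across) and in room air (upward), with standard errors, for the 10 genes with the smallest p on each side in hyperoxia that meet the naming rule. Pde4b lies at 1.54 and 0.89, and Flad1 and Per2 are the named higher genes with a negative room air value. The genes were chosen on the hyperoxia values, so only the room air fold changes do not enter the choice. The standard errors of both axes rest on a shared estimate of each gene's spread.

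No gene passed the test of the difference between the drug's effects in hyperoxia and in room air by edgeR QL, with 234 genes on the positive side (1.48%) and 231 on the negative (1.47%) at an unadjusted p under 0.05. DESeq2 and limma-voom also called 0. The smallest p among genes of at least 5 CPM belonged to Flad1, with 0.97 in hyperoxia and -0.41 in room air, a difference of 1.38 (SE 0.31, edgeR QL adjusted p = 1.00). Serac1, a gene of phospholipid remodelling, had 0.07 and -0.52, and Rprd1b -0.36 and 0.11. A difference in the drug's effect between both oxygen conditions was therefore not shown for any gene.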

How the data were processed

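Whole-lung RNA of 12 libraries (3 per group) was amplified and sequenced, per the labels' protocols. The deposited table holds whole-number counts per gene, made by the authors. The submitters' processing notes name Bowtie2, Cufflinks, DESeq and the build mm10 without versions. For the counting tool, strand use and reads with several matches, the sources used here give nothing, so overlapping, antisense and near-identical genes are uncertain.

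Genes with too few counts were removed (filterByExpr, minimum count 10, minimum total 15), which kept 15761 of 23478 genes and 99.955% of counts. Counts were scaled by TMM and tested with edgeR 4.0.16 (glmQLFit and glmQLFTest, R 4.3.3) on all 12 samples with 1 mean per group (8 residual degrees of freedom) and Benjamini-Hochberg adjustment over all genes. DESeq2 1.42.0, limma-voom (limma 3.58.1), other scaling, other filters, a replicate block, covariates and samples left out were alternatives. The median biological coefficient of variation was 15%. Amplified reads carry no molecular identifiers, so counts are not independent molecules. The script was tested on simulated counts.

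Named genes were the 10 with the smallest p in each direction that had at least 5 CPM, no overlap between groups and no place in the lists of heart, muscle, thymus, blood, liver or fat markers, with the leading members of each list and a set of fixed genes. Members, lists and rules were chosen with earlier results of these data known, and further genes were named after their values were seen. Gene positions and promoters come from RefSeq (GRCm38.p6), matched by symbol for 21912 genes and by synonym for 1422. Promoters were searched over 250 bases before the start. No promoter of Hmox1 is printed.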

Additional observations from a re-analysis of the deposited data

How the results depend on the processing

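Leaving aside the fit with 1 saline hyperoxia library, Pde4b was called higher in every fit except those named in the report. Its log2 fold change stayed positive in all. Genes called higher in hyperoxia numbered 7 by DESeq2, 3 by limma-voom and 3 with no filter on low counts. They numbered 0 without the cardiac-rich libraries, 0 with sex as a covariate, and 0 to 1 with 1 library left out. Genes called lower numbered 4 by DESeq2 and 0 to 2 with 1 library left out, the 2 being Fam83d and Rag1 without saline hyperoxia 1. In room air DESeq2 called 7 higher and 9 lower, and leaving out 1 library gave 0 to 1 lower (1 without ATG room air 2). The labels do not say whether replicate numbers pair the samples. Deviations from the group mean had correlations of -0.0211, 0.28 and 0.129 between same-numbered samples. Differently numbered samples had -0.272 to 0.222, and so few values cannot decide whether the numbers pair samples. With the replicate block 2 genes were called higher, Pde4b and Ngp.

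Without the cardiac-rich libraries the medians were 0.10 for mitosis genes, 0.18 for p53 targets and -0.42 for thymocyte markers. Without these and the muscle-rich library they were -0.11 for alveolar type 1, -1.03 for thymocyte and 0.13 for skeletal muscle markers. A minimum of 5 CPM gave -0.46 for thymocyte markers. With 1 library left out, medians ranged from 0.028 to 0.36 (transitional epithelium), -2.70 to -0.92 (thymocyte), -0.52 to 1.27 (erythroid), -2.63 to -0.057 (skeletal muscle) and -1.27 to 2.24 (cardiomyocyte).

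Some named genes whose intervals included 0 changed sign, among them Mki67 (-0.43 as reported). Without the cardiac-rich libraries the values were 0.063 for Kdr, 0.093 for Mki67, -0.19 for Mt2, 0.15 for Pde4a, 0.0000 for Pde4d and -0.020 for Pecam1. Without these and the muscle-rich library they were -0.039 for Angpt1, -0.051 for Cdkn1a, -0.056 for Nqo1, 0.089 for Pde4a, -0.0026 for Pecam1 and -0.062 for Txnrd2. With sex as a covariate they were 0.019 for Kdr, -0.0091 for Mt2 and 0.035 for Pde4a, with the heart marker covariate 0.016 for Kdr and 0.0033 for Vegfa, and with no filter 0.0009 for Kdr. With 1 library left out the values ranged from -0.051 to 0.20 (Angpt1), -0.23 to 0.34 (Cdkn1a), -0.020 to 0.095 (Epas1), -0.10 to 0.13 (Kdr), -0.091 to 0.28 (Mt2), -0.042 to 0.29 (Nqo1), -0.18 to 0.11 (Pde4a), -0.040 to 0.086 (Pecam1), -0.0006 to 0.21 (Txnrd3) and -0.15 to 0.056 (Vegfa).
The cause of these changes was not tested. With 3 samples a group, small effects and changes of rare genes were mostly not detectable.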

Other observations

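Genes for zinc finger proteins named Zfp and a number were looked at after their values were seen. Of 319 tested in hyperoxia, 239 (74.9%) had a negative log2 fold change, with a median of -0.13 against 0.0009 over all genes. At an unadjusted edgeR QL p under 0.05, 45 (14.1%) were on the lower side and 1 on the higher, against 3.07% and 2.62% of all genes, and none passed after adjustment. The median was -0.081 with 29 on the lower side without ATG hyperoxia 2. It was also -0.081 without the cardiac-rich and muscle-rich libraries, which leaves 1 saline hyperoxia library. The lower side held 31 without saline hyperoxia 1, where the higher side held 3. The samples did not overlap for 61 (19.1%) on the lower side and 9 on the higher, against 5.54% and 5.55%. In room air, which shares no library with this comparison, the median was -0.06, with 27 on the lower side and 4 on the higher. Many of these genes have near-identical copies, so their counts are uncertain.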
